A study of Mus musculus with 10 samples.

Results

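The genes described here are 10 genes of melanocytes and of the intermediate cells of the stria vascularis: Mitf, Kit, Ednrb, Tyr, Tyrp1, Dct, Pmel, Mlana, Slc45a2 and Gpr143. The rule lists them by name as genes of the lineage and sets no threshold on a measured value. They are 10 of the 54532 genes in the deposited table. All 10 passed the filter on low counts and so are among the 17937 genes tested between genotypes. RNA-seq was done on soft tissue of the mouse cochlea at postnatal day 1, in females, with both ears of 1 animal pooled as 1 replicate. The 5 control libraries came from Esrrgfl/fl animals, which carry floxed alleles of the nuclear receptor gene Esrrg and no Cre. The 5 libraries labelled cKO came from Esrrgfl/fl;Sox10-Cre animals, so both groups carry the floxed alleles and differ in the Cre. Sox10 is expressed in the otic epithelium and in neural crest derivatives, which include glia and melanocytes, so this driver can act in several cell types of the dissected tissue.

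Melanocytes of the inner ear arise from the neural crest and from its Schwann cell precursors, migrate to the cochlear lateral wall and become the intermediate cells of the stria vascularis. There they interlock with marginal cells and with capillaries, and their potassium channel Kcnj10 is needed for the endocochlear potential. Mitf encodes the transcription factor that specifies the lineage and binds E-box sequences, among them CATGTG, in front of pigment genes. Kit and Ednrb encode the receptors for Kit ligand and endothelin 3, which the precursors need for survival and migration. Tyr, Tyrp1 and Dct encode the enzymes of melanin synthesis. Pmel forms the amyloid fibrils on which melanin is laid down, Mlana is a melanosome protein that binds Pmel, Slc45a2 is a transporter that keeps melanosomes from becoming too acidic, and Gpr143 is a receptor of the melanosome membrane.

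The upstream sequences of 3 of the enzyme genes are shown because they hold the core of the Mitf binding motif, CATGTG, near the start of transcription. They come from the RefSeq promoter table (GRCm38.p6), which gave entries for 6 of the 10 genes. Each is written 5′ to 3′ along the gene, in lower case, with CATGTG or its reverse complement CACATG in capitals. The stretches of Tyr (chr7:87493513-87493762, minus strand) and Dct (chr14:118052247-118052496, minus strand) are the 250 bases before the start. For Tyrp1 (chr4:80834155-80834184, plus strand) the 30 bases around the match are given, since a GENCODE M21 transcript that begins farther upstream has the match in its first exon.
Tyr: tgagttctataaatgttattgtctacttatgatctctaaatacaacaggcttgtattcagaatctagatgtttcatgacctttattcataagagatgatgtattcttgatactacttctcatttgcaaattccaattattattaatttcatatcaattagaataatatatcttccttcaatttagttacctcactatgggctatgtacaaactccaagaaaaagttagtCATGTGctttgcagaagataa
Dct: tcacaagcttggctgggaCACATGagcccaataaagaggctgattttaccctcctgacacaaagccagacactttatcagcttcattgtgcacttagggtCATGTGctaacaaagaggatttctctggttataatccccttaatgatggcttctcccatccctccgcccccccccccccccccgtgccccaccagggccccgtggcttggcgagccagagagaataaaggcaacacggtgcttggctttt
Tyrp1: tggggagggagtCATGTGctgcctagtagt

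CATGTG began 21 bases upstream of the start in Tyr, 46 bases upstream in Tyrp1 and 150 bases upstream in Dct, where a copy on the other strand lay 232 bases upstream. In all 3 genes it was preceded by T, giving the longer form TCATGTG. Searched on both strands, CATGTG occurred in the upstream 250 bases of 13.8% of the 27025 genes in the table, and TCATGTG in 3.72%. The related E-box CACGTG, present in 6.86% of genes, was in none of the 6 genes with an entry. In the same windows of Kit, Ednrb and Mitf, CATGTG was not among these letters. Of the 45 other pathway genes described below, 38 had an entry, of which 10 held CATGTG and 11 held CACGTG. These are matches of letters, and binding was not measured here.

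The library labels were first checked against the targeted gene. Esrrg was measured at 56.1, 48.5, 60.9, 64.7 and 61.7 CPM (counts scaled to a common library size) in controls 1 to 5, and at 109, 96.02, 78.2, 70.7 and 95.01 CPM in cKO 1 to 5. Every library labelled cKO was above every control (log2 fold change 0.62, SE 0.117; edgeR quasi-likelihood test, Benjamini-Hochberg adjusted p = 0.0259), which is against the direction the label gives. With 1 library left out at a time, the adjusted p stayed under the threshold in 3 of 10 edgeR fits and reached 0.0992. Whether the counted reads come from exons left in place by the deletion could not be read from gene totals. The genotype is therefore given below as labelled, and each direction depends on that label. Library totals were 34504710 to 41779836 counts in controls and 33487089 to 39988724 in cKO. On the first principal component of the 500 most variable genes, control 2 and cKO 5 stood apart from the rest of their groups, so values without them are given where they move. Between genotypes, 111 of the 17937 tested genes had an adjusted p under 0.05, which is 0.619% of them: 98 (0.546%) were lower and 13 (0.0725%) higher in the libraries labelled cKO.

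All 10 genes were detected in every library, at levels that spanned more than 2 orders of magnitude per unit of exon length. The levels compared between genes are the deposited FPKM values (fragments scaled by exon length and by library size), as the mean over all 10 libraries. Ednrb was the most abundant at 71.2 ± 15.02 FPKM (SD, n = 10), above 97.0% of tested genes. Pmel followed at 30.8 ± 3.54 FPKM and Dct at 28.3 ± 2.66 FPKM, above 91.2% and 90.2% of tested genes. A middle group held Tyr at 6.64 ± 0.977, Mlana at 5.39 ± 1.40, Kit at 5.32 ± 0.557 and Slc45a2 at 4.77 ± 0.633 FPKM. Below them, Mitf stood at 3.03 ± 0.423 FPKM. Gpr143 at 0.562 ± 0.238 and Tyrp1 at 0.320 ± 0.169 FPKM were the lowest, above 16.9% and 10.7% of tested genes.

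Some steps of this order were larger than the spread over libraries and others were not. The lowest library of Ednrb was above the highest of Pmel, and the ranges of Dct and Tyr, of Slc45a2 and Mitf, and of Mitf and Gpr143 did not overlap either. The ranges of Pmel and Dct overlapped, with Pmel higher in 8 of 10 libraries. The ranges of the neighbours Tyr and Mlana, Mlana and Kit, Kit and Slc45a2, and Gpr143 and Tyrp1 overlapped too, so their order is not firm. The enzymes of melanin synthesis differed most among themselves. The FPKM ratio of Dct to Tyr lay between 3.51 and 5.15 over the 10 libraries. The ratio of Dct to Tyrp1 lay between 39.9 and 195, with a median of 107. Dct made up 34.1 to 40.9% and Pmel 36.9 to 42.1% of the summed FPKM of the 7 melanosome genes (Tyr, Tyrp1, Dct, Pmel, Mlana, Slc45a2 and Gpr143) in every library, so this pair carried most of the pigment signal.

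**Figure D1:**
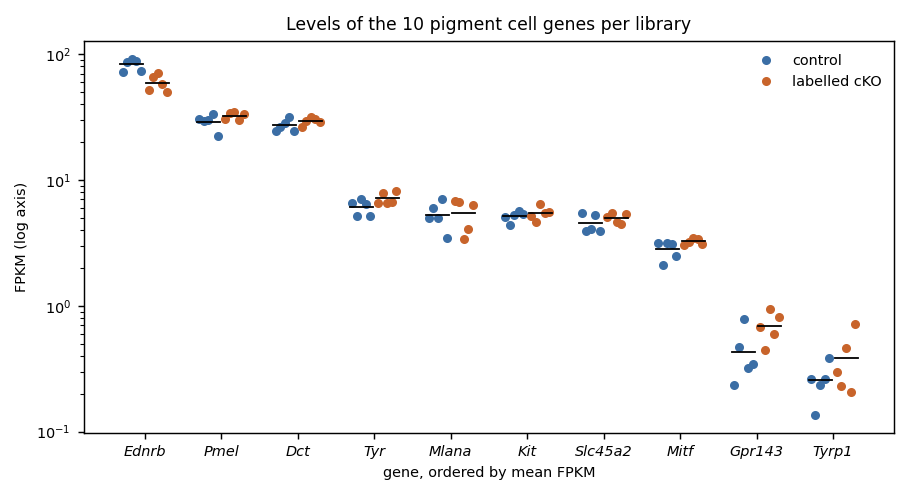
FPKM of the 10 genes in each of the 10 libraries on a logarithmic axis, 1 point per library, with black lines for the means of the control and cKO groups. Ednrb lies highest (49.98 to 92.3 FPKM), Pmel and Dct next, and Gpr143 and Tyrp1 lowest (0.233 to 0.944 and 0.136 to 0.723 FPKM).

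The labelled tissue was checked against markers of other cells that could contribute these transcripts. Of 6 markers of the retinal pigment epithelium, which shares the pigment genes, 4 reached 10 counts in a library, and the list summed to 29.1 to 41.8 CPM in controls and 26.7 to 35.5 CPM in libraries labelled cKO. Its defining gene Rpe65 had at most 1 count in a library, and Rgr had 0 in at least 1. Of 8 mast cell markers 7 reached 10 counts, with sums of 19.6 to 26.9 and 23.6 to 35.5 CPM, and Tpsab1 and Fcer1a had 0 counts in at least 1 library. Of 8 keratinocyte markers 7 reached 10 counts, with sums of 15.5 to 20.7 and 14.7 to 17.7 CPM, and Krt5, Krt14, Dsg3 and Krtdap had 0 counts in at least 1 library. The 7 markers of osteoclasts, which also use Mitf, summed to 164 to 285 and 163 to 213 CPM. Of the 5 osteoclast markers tested, 4 had log2 fold changes below 0, with a median of -1.06. In edgeR (0.619% of tested genes called), DESeq2 and limma-voom 0 of them were called. At an unadjusted edgeR p under 0.05, 1 passed as lower (5.52% of tested genes). Their median coefficients of variation were 47.6% in controls and 64.7% in libraries labelled cKO, against 15.8% and 11.8% over all tested genes. The part of these cells in the levels of the 10 genes was not tested. The 8 markers of strial marginal cells, the epithelial cells that face intermediate cells, summed to between 934 and 1350 CPM. The potassium channel Kcnj10, which intermediate cells share with glia and supporting cells, was present at a mean of 5.03 FPKM. In bulk tissue, a change in the number of cells of a type and a change in RNA per cell cannot be told apart.

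None of the 10 genes passed the adjusted threshold between genotypes, where 0.619% of tested genes did. At an unadjusted p under 0.05, 3 of the 10 passed (Ednrb lower, Tyr and Gpr143 higher in the libraries labelled cKO), against 9.65% of tested genes, 5.52% lower and 4.13% higher. Groups did not overlap for 1 of the 10, Ednrb, against 2.84% of tested genes, 1.64% lower and 1.20% higher. The fitted log2 fold change was above 0 for 9 of the 10 genes, with a median of 0.14. Over all tested genes 48.3% were above 0 and 51.7% below, with a median of -0.01. Several of these transcripts are known to come from the same cells, so the 10 signs are not independent, and no test was made on their number. Without control 2 and cKO 5, which stood apart on the first principal component, the median of the 10 was 0.08, with 9 of 10 above 0. With 1 library left out at a time, the median ranged from 0.09 without control 5 (8 of 10 above 0) to 0.19 without control 4 (9 of 10).

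Ednrb, the endothelin receptor, differed in sign from the other 9. It was measured at 310.2, 379.6, 395, 379.7 and 319 CPM in controls 1 to 5. In cKO 1 to 5 it was 223, 283, 305, 248 and 217 CPM. Every library labelled cKO was below every control, although the highest of them, cKO 3 at 305 CPM, was close to the lowest control, control 1 at 310.2 CPM. The means were 357 ± 39.1 CPM (SD, n = 5) and 255 ± 38.2 CPM, a ratio of 0.715. Its log2 fold change was -0.48 (SE 0.110), and the adjusted p of 0.0759 in the edgeR quasi-likelihood test over all genes missed the threshold. An exact two-sided permutation test of log2 CPM gave p = 0.00794, the smallest its 252 assignments allow. Groups that do not overlap give this value by construction, so it adds nothing to the lack of overlap. The call depends on the method: the adjusted p was 0.0211 in edgeR with no filter on low counts, 0.00590 in DESeq2, 0.0101 in limma-voom and 0.0464 in edgeR without cKO 3. Leaving out each of the other libraries in turn gave edgeR adjusted p-values up to 0.239 with the same direction, and without control 2 and cKO 5 together the log2 fold change was -0.41 (edgeR adjusted p = 0.131).

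Ednrb is also expressed in glia and in vascular cells, so their markers are given beside it. The 11 markers of Schwann cells and satellite glia summed to 1012 to 1318 CPM in controls and 662 to 1090 CPM in libraries labelled cKO. All 11 had log2 fold changes below 0, with a median of -0.47. Of the 11, 0 passed the adjusted threshold in edgeR and 6 passed at an unadjusted p under 0.05 (5.52% of tested genes did so in that direction). DESeq2 and limma-voom each called 2 of the 11, both lower, of 253 and 295 genes they called lower in all. The 6 endothelial markers summed to 442 to 527 CPM in controls and 486 to 525 CPM in libraries labelled cKO, ranges that overlap. The part of glia or vessels in the Ednrb difference was not tested.

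With the genotype means removed, Ednrb was compared over the 10 libraries with the mean log2 CPM of gene lists. These were the markers of glia, endothelium, osteoclasts, mast cells and marginal cells, and the 7 melanosome genes. These relations belong to a family of 24 chosen after the data were seen. The correlation of Ednrb with the endothelial mean was r = 0.68 (permutation p = 0.0280, adjusted p = 0.336, and rho = 0.60 with permutation p = 0.0736). Without cKO 5 and cKO 3, the libraries farthest from the median of Ednrb, r was 0.88. With the glial mean, r was 0.29 (permutation p = 0.423, adjusted p = 0.743, and rho = 0.38 with permutation p = 0.280) and -0.04 without those libraries. With the mean of the 7 melanosome genes it was 0.03 (permutation p = 0.939; rho = 0.01) and 0.43 without those libraries. With the osteoclast, marginal cell and mast cell means, r was 0.49, 0.29 and -0.14 (permutation p = 0.150, 0.409 and 0.700). Without cKO 5 and cKO 3 these were 0.10, 0.41 and 0.35. None of these relations of Ednrb passed after adjustment.

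**Figure D2:**
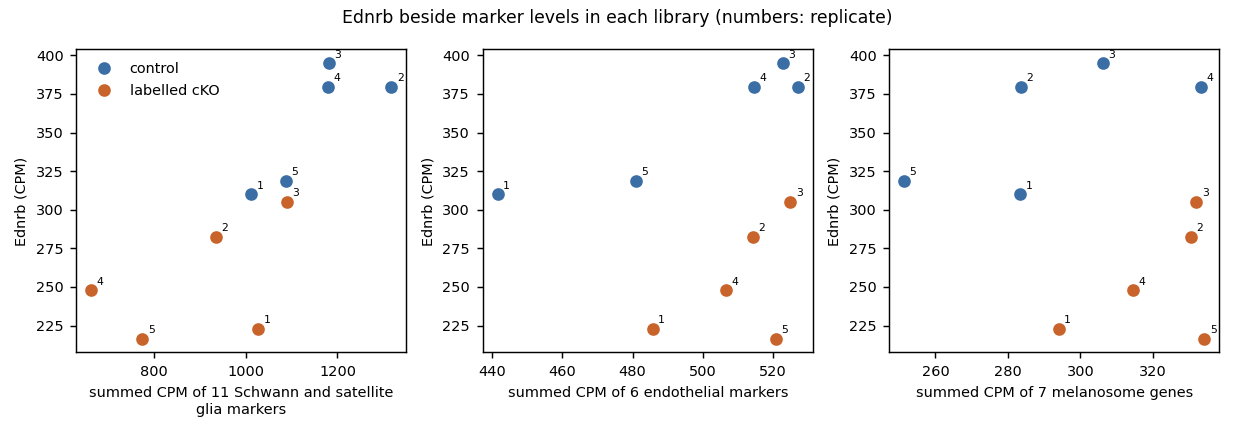
Ednrb in CPM (vertical axis) against the summed CPM of 11 glial, 6 endothelial and 7 melanosome genes (horizontal axes), 1 point per library and coloured by genotype label. The cKO points lie below the control points in Ednrb and mostly to the left in the glial sum (662 to 1090 against 1012 to 1318 CPM), but not in the endothelial or melanosome sums.

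Kit, the receptor for Kit ligand, was measured at 45.8, 40.3, 47.5, 50.8 and 48.6 CPM in controls 1 to 5 and at 46.3, 41.3, 57.6, 49.2 and 50.2 CPM in cKO 1 to 5. The groups overlapped through most of their range, and the highest library was cKO 3. Its log2 fold change was 0.07 (SE 0.0958; edgeR adjusted p = 0.833), and 0.01 without cKO 3, without control 2, or without control 2 and cKO 5. Kit is also a gene of mast cells, whose 8 markers summed to 19.6 to 35.5 CPM. Of the 5 tested, 4 had log2 fold changes above 0, with a median of 0.27. In edgeR 0 of them were called, and 2 passed as higher at an unadjusted p under 0.05 (4.13% of tested genes). DESeq2 and limma-voom each called 1, as higher, of 54 and 53 genes they called higher in all. The part of mast cells in the level of Kit was not tested. Within genotypes Kit correlated with the mean log2 CPM of the 5 mast cell markers tested at r = -0.54 (permutation p = 0.105, and rho = -0.52 with permutation p = 0.133).

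Mitf, the lineage transcription factor, was measured at 19.8, 13.3, 19.8, 19.3 and 15.6 CPM in controls 1 to 5. In cKO 1 to 5 it was 18.9, 20.01, 21.7, 21.3 and 19.3 CPM. Controls 2 and 5 were low, and the other 3 controls lay among the libraries labelled cKO. The means were 17.5 ± 2.95 and 20.2 ± 1.22 CPM, with a log2 fold change of 0.21 (SE 0.117; edgeR adjusted p = 0.61), 0.11 without control 2 and 0.13 without control 2 and cKO 5. Within genotypes Mitf followed the mean log2 CPM of the 8 strial marginal cell markers at r = 0.82 (permutation p = 0.00401, adjusted p = 0.0962, and rho = 0.79 with permutation p = 0.0089). Without controls 2 and 5, r was 0.62, so part of the relation rests on those libraries.

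Among the enzymes, Tyr, which catalyses the first step of melanin synthesis, was measured at 46.9, 37.4, 50.5, 46.3 and 37.3 CPM in controls 1 to 5. In cKO 1 to 5 it was 46.9, 56.1, 46.7, 47.5 and 59.4 CPM. Controls 2 and 5 were the lowest libraries and cKO 2 and 5 the highest, with the other 6 between 46.3 and 50.5 CPM in both groups. On the log2 scale Tyr was higher in cKO by 0.23 (SE 0.108; edgeR adjusted p = 0.517). The unadjusted edgeR p was 0.0494 and the exact two-sided permutation p 0.0952, and without control 2 and cKO 5 the log2 fold change was 0.11.

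Dct, dopachrome tautomerase, was measured at 146, 159.7, 168, 189 and 147 CPM in controls 1 to 5 and at 156, 175, 186, 181 and 173 CPM in cKO 1 to 5. The highest library was control 4 and the groups overlapped. Its log2 fold change was 0.10 (SE 0.0850; edgeR adjusted p = 0.709). Dct varied least of the 10, with a coefficient of variation of 9.22% over all libraries, against 1.26% from counting error alone.

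Tyrp1 rested on few reads, between 14 and 76 counts in a library. It was measured at 0.746, 0.394, 0.667, 0.748 and 1.10 CPM in controls 1 to 5 and at 0.839, 0.657, 1.32, 0.587 and 2.08 CPM in cKO 1 to 5. The highest library was cKO 5, the lowest control 2, and the others overlapped. For Tyrp1 the log2 fold change was 0.58 (SE 0.367; edgeR adjusted p = 0.636), 0.22 without cKO 5 and 0.06 without control 2 as well. Its coefficient of variation of 53.1% compares with 17.1% from counting error.

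Pmel, the fibril protein of the melanosome, was measured at 69.8, 69.4, 69.5, 76.5 and 51.5 CPM in controls 1 to 5. In cKO 1 to 5 it was 69.8, 77.6, 79.5, 68.6 and 78.04 CPM. Control 5 stood below the other 9 libraries, and without it the groups covered nearly the same range. For Pmel the log2 fold change was 0.15 (SE 0.0988; edgeR adjusted p = 0.647), and 0.07 without control 5. Exons of Pmel overlap those of Cdk2 and Dgka on the opposite strand, and whether counting used strand is not given in the sources used here, so some of its reads may belong to them.

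Mlana was measured at 3.13, 3.795, 3.10, 4.43 and 2.20 CPM in controls 1 to 5 and at 4.26, 4.20, 2.14, 2.53 and 4.02 CPM in cKO 1 to 5. The groups covered the same range. A log2 fold change of 0.04 (SE 0.231; edgeR adjusted p = 0.965) has no firm sign, as limma-voom gave -0.10. Leaving out control 5, cKO 1, cKO 2 or cKO 5 also took it below 0, with -0.08 the lowest.

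Slc45a2 was measured at 16.3, 12.004, 12.3, 15.8 and 11.9 CPM in controls 1 to 5 and at 15.3, 16.5, 13.9, 13.3 and 16.1 CPM in cKO 1 to 5. Controls 2, 3 and 5 were the lowest libraries, while controls 1 and 4 lay among the highest. Its log2 fold change was 0.14 (SE 0.119; edgeR adjusted p = 0.726), and 0.06 without control 2 and cKO 5.

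Gpr143, on the X chromosome, had 20 to 76 counts in a library. It was measured at 0.466, 0.956, 1.57, 0.637 and 0.691 CPM in controls 1 to 5 and at 1.35, 0.886, 1.89, 1.20 and 1.64 CPM in cKO 1 to 5. Control 3 lay among the cKO libraries and cKO 2 among the controls. The log2 fold change of 0.70 (SE 0.318) was the largest of the 10 but the second least precise (edgeR p = 0.0449, adjusted p = 0.504; exact two-sided permutation p = 0.0714).

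**Figure D3:**
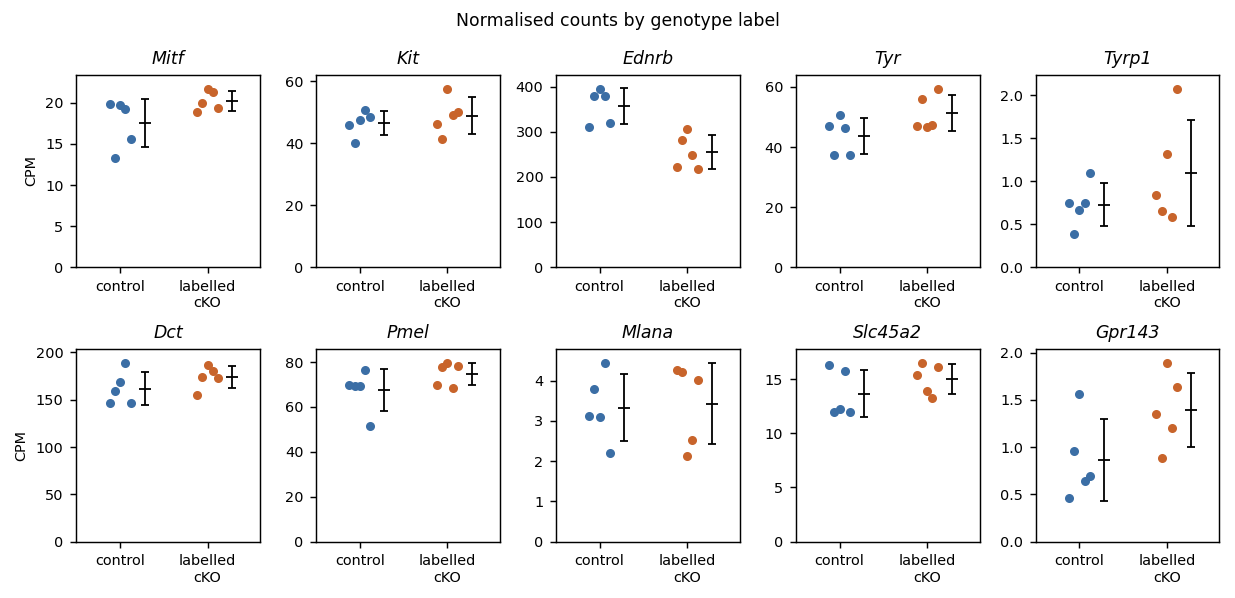
CPM of each of the 10 genes in the 5 control and 5 cKO libraries, 1 panel per gene, with points for libraries and bars for mean ± SD (n = 5). The groups do not overlap for Ednrb (310.2 to 395 against 217 to 305 CPM) and overlap for the other 9 genes.

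In GRCm38 coordinates (GENCODE M21), Ednrb (ENSMUSG00000022122) spans chr14:103814625-103844402 and Dct (ENSMUSG00000022129) chr14:118012790-118052244, both on the minus strand of chromosome 14. Tyr (ENSMUSG00000004651) spans chr7:87424771-87493512 on the minus strand, and Mitf (ENSMUSG00000035158) chr6:97807052-98021349 on the plus strand. The remaining genes lie on the plus strand, Kit (ENSMUSG00000005672) at chr5:75574916-75656722, Tyrp1 (ENSMUSG00000005994) at chr4:80834123-80851719 and Pmel (ENSMUSG00000025359) at chr10:128704195-128720238. Mlana (ENSMUSG00000024806) lies at chr19:29697824-29708634, Slc45a2 (ENSMUSG00000022243) at chr15:11000721-11029233 and Gpr143 (ENSMUSG00000025333) at chrX:152781921-152808646.

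As a summary level, the 7 melanosome genes summed to 251 to 333 CPM in controls and 294 to 334 CPM in libraries labelled cKO. The means were 292 ± 30.4 and 321 ± 16.98 CPM (SD, n = 5). The ranges overlapped, and the cKO range began higher. All 7 had log2 fold changes above 0, with a median of 0.15, and none was called. Without control 5 the median was 0.093 with 6 of 7 above 0, and without control 2 and cKO 5 it was 0.094 with 7 of 7. In limma-voom and without cKO 1, cKO 2 or cKO 5, 6 of 7 were above 0.

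Co-variation across libraries was measured on log2 CPM with the genotype means removed, so that a shared genotype difference does not enter. Over the 45 pairs of the 10 genes the median Pearson r was 0.17, and 32 pairs (71.1%) were positive. Over all pairs of tested genes the median was near 0 and 49.96% were positive. The 21 pairs among the 7 melanosome genes had a median r of 0.19 and 16 were positive. The points share libraries and are 10 in number, and 0 of the 45 pairs passed after Benjamini-Hochberg adjustment of the permutation p-values.

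The highest pair was Ednrb and Dct at r = 0.70 (permutation p = 0.0269; rho = 0.71, permutation p = 0.0268; adjusted p = 0.401 and 0.448). Without cKO 5 and cKO 3 it was 0.76. Kit and Tyrp1 followed at r = 0.64 (permutation p = 0.0455; rho = 0.77, permutation p = 0.0129; adjusted p = 0.401 and 0.448) but at 0.36 without cKO 2 and control 2, so this pair rests on those libraries. The lowest pair was Slc45a2 and Gpr143 at r = -0.60 (permutation p = 0.0703, adjusted p = 0.401). For this pair rho was -0.45 (permutation p = 0.193, adjusted p = 0.655), and r was -0.35 without control 1 and control 4.

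Depth differed widely between these pairs. Tyr, Dct, Pmel and Slc45a2, the 4 melanosome genes that never dropped under 400 counts, were set apart after their values were seen and carry no test. Their 6 pairs were all positive, from 0.03 for Dct and Slc45a2 to 0.62 for Dct and Pmel, with a median of 0.55. The other 15 melanosome pairs, which include Tyrp1, Mlana or Gpr143, had a median of 0.12, with 10 positive. Without control 3 and cKO 5, Tyr and Slc45a2 went from r = 0.60 to 0.91, Tyr and Pmel from 0.57 to 0.59 and Tyr and Dct from 0.27 to 0.26. Without control 4 and cKO 1, Dct and Pmel went from 0.62 to 0.47 and Dct and Slc45a2 from 0.03 to -0.39. Pmel and Slc45a2 went from 0.53 to 0.25 without control 5 and cKO 4. In each case the 2 libraries farthest from the median of the first gene were left out.

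Against the mean of the other melanosome genes, Tyr had the highest r of the 10 genes at 0.60 and Pmel the next at 0.49. Mitf and Dct both stood at 0.27, Ednrb at 0.03 and Gpr143 at -0.03. This order rests on few libraries. Without the 2 farthest from the median of the mean, Mitf stood at 0.69, Dct at 0.66 and Pmel at 0.56. Ednrb then stood at 0.49, Tyr at 0.44 and Gpr143 at -0.30. Leaving out controls 2 and 5 instead, the farthest from the median of Mitf, gave Mitf r = -0.03. Each gene has equal weight in the melanosome mean. Tyrp1, Gpr143 and Mlana varied most, with coefficients of variation of 53.1%, 42.3% and 26.0%, against 9.22% for Dct. The part of these low-count genes in the correlations given here was not tested. Among the pathway genes, Gpnmb, a glycoprotein of melanosomes and macrophages, followed the melanosome mean at r = 0.66. Sox10, which activates Mitf in the lineage, stood at -0.07. The gene with the highest r of all tested, outside the 10, was Bhlhe22 at 0.91 (rho = 0.93), a transcription factor gene at 2.66 FPKM. The next were Gm10226 at 0.90, Fosb at 0.90, Fam227a at 0.89 and Lrrc36 at 0.89. They were named as the highest of many, so no p is given, and none of these 5 is among the pigment genes listed here.

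**Figure D4:**
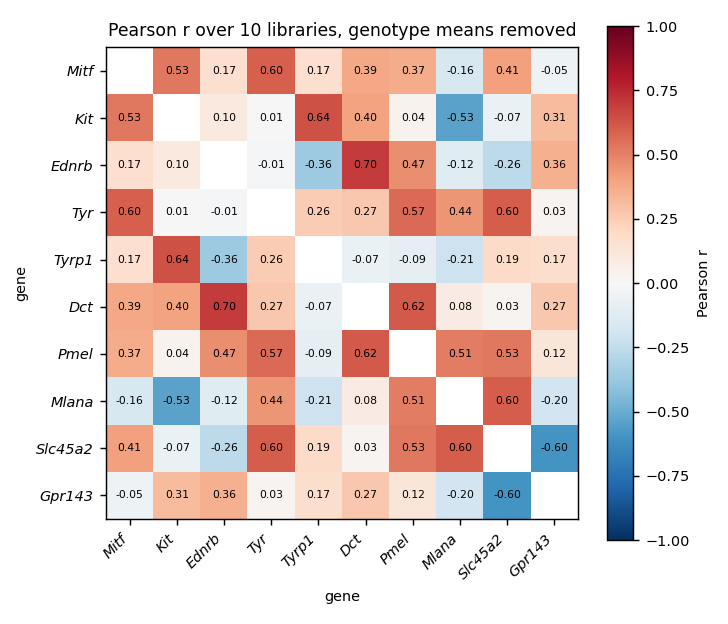
Heat map of Pearson r between each pair of the 10 genes over the 10 libraries, on log2 CPM with genotype means removed and r written in each cell. Most cells are positive (32 of 45), with Ednrb and Dct highest at 0.70 and Slc45a2 and Gpr143 lowest at -0.60.

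A list of 45 further genes of the pathway gave the background for the 10. All 45 were tested, 0 passed the adjusted threshold in edgeR (0.619% of tested genes did), and 2 passed at an unadjusted p under 0.05 (9.65%). DESeq2, limma-voom and the other settings run also called 0 of the 45. The log2 fold change was above 0 for 30 and below 0 for 15, with a median of 0.06, and without control 2 and cKO 5 for 25 and 20, with a median of 0.03. Mlph, the melanophilin that links melanosomes to their myosin motor, was at 2.4999 ± 0.628 CPM in controls and 3.94 ± 0.971 CPM in libraries labelled cKO (log2 fold change 0.65, SE 0.213; edgeR adjusted p = 0.302), and 0.40 without control 2 and cKO 5. Mreg, melanoregulin, was at 22.9 ± 3.498 and 18.8 ± 1.94 CPM (log2 fold change -0.29, SE 0.114; edgeR adjusted p = 0.430).

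By role, the ligands and upstream factors numbered 10, all with log2 fold changes above 0 in edgeR and a median of 0.10. Without control 2 and cKO 5, 7 of the 10 were above 0 (median 0.07), as in limma-voom (median 0.04). Kitl, the ligand of Kit, stood at 5.79 FPKM (log2 fold change 0.08, edgeR adjusted p = 0.785). Edn3, the ligand of Ednrb, stood at 6.13 FPKM (0.06, edgeR adjusted p = 0.841). Sox10 itself, whose promoter drives the Cre, was at 205 ± 25.8 CPM in controls and 226 ± 17.5 CPM in libraries labelled cKO (0.14, SE 0.0926; edgeR adjusted p = 0.644). Per length, both ligands were near the level of Kit, while Ednrb was more than 10 times higher than Edn3.

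Of the 14 genes of melanosome channels, trafficking and other pigment roles, Mlph and Mreg among them, 9 had log2 fold changes above 0 and 5 below, with a median of 0.12. Without cKO 5 the median was 0.02, and without control 2 and cKO 5 it was 0.01, with 7 above and 7 below. Oca2, a chloride channel of melanosomes, was low at 0.301 FPKM (0.51, edgeR adjusted p = 0.601), and Mc1r, the melanocortin receptor, was lower at 0.110 FPKM (0.34, edgeR adjusted p = 0.810). Slc24a5, an exchanger of the melanosome, stood at 2.21 FPKM (0.11, edgeR adjusted p = 0.834) and Trpm1 at 1.61 FPKM (-0.02, edgeR adjusted p = 0.966). Exons of Mc1r, Slc24a5 and Trpm1 overlap a gene on the opposite strand. Of 18 genes of lysosome-related organelle biogenesis, among them the Hps, Ap3 and Bloc1 genes, 9 were above 0 and 9 below.

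The last 3 pathway genes mark intermediate cells by function. Kcnj10, the potassium channel, had a log2 fold change of -0.16 (edgeR adjusted p = 0.736). Kcnj13, a related channel whose exons also overlap an opposite-strand gene, stood at 2.13 FPKM with 0.33 (edgeR adjusted p = 0.622), and Met, a receptor tyrosine kinase of these cells, at 5.63 FPKM with 0.22 (edgeR adjusted p = 0.533). The 8 marginal cell markers beside them all had log2 fold changes above 0, with a median of 0.22. None was called by edgeR, DESeq2 or limma-voom, and 2 passed as higher at an unadjusted p under 0.05 in edgeR (4.13% of tested genes). They summed to 934 to 1314 CPM in controls and 1267 to 1350 CPM in libraries labelled cKO. Within genotypes the mean of the 7 melanosome genes correlated with the mean log2 CPM of these markers at r = 0.46. The permutation p was 0.183 and the adjusted p 0.631, with rho = 0.43. Without cKO 5 and cKO 4, the farthest from the median of the melanosome mean, r was 0.81. The part of marginal cells in the positive values of the pigment genes was not tested.

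**Figure D5:**
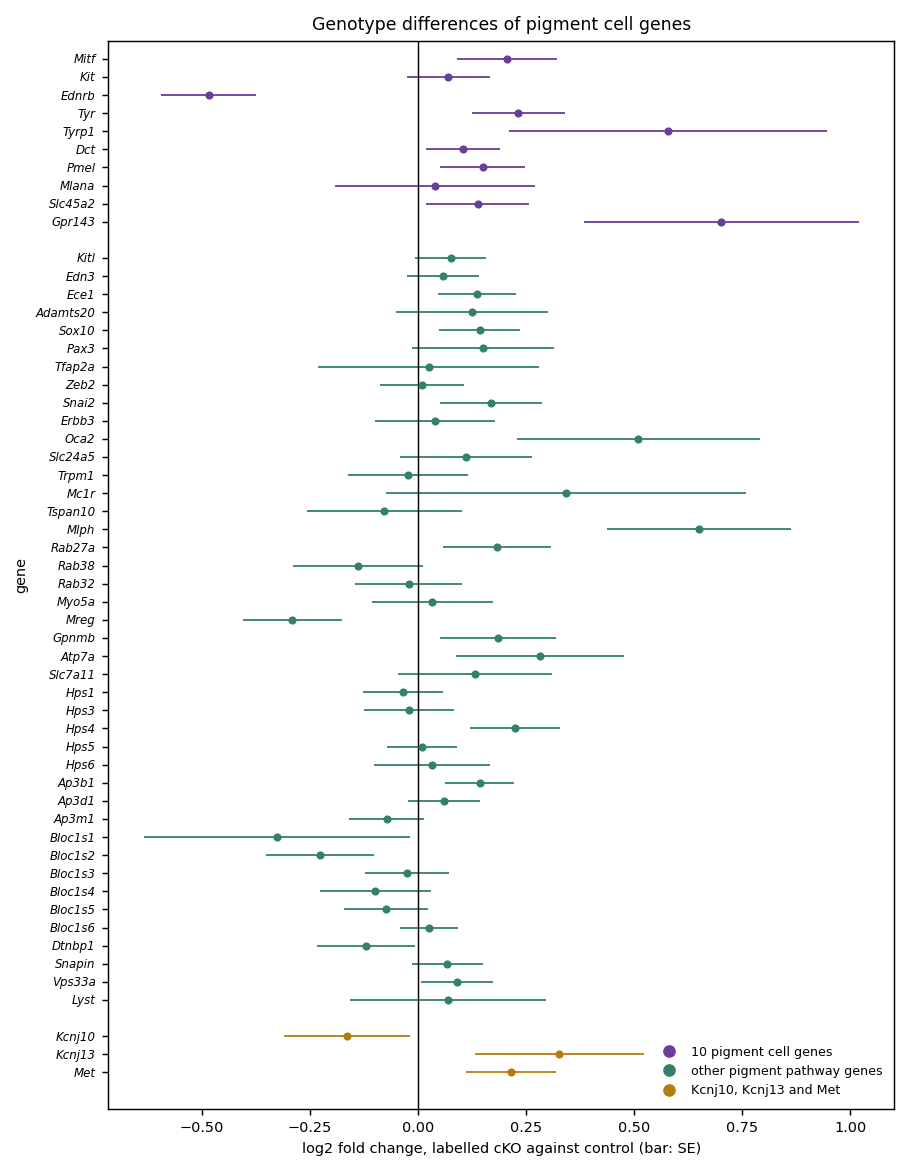
Log2 fold change (cKO minus control) with its SE from the edgeR fit for the 10 genes, the 42 pathway genes by role, and Kcnj10, Kcnj13 and Met. Ednrb lies farthest below 0 among the 10 at -0.48, and the other 9 lie between 0.04 and 0.70. Of the 10, Tyrp1, Gpr143 and Mlana have the widest bars.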

How the data were processed

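RNA-seq libraries of mouse cochlear soft tissue (5 control, 5 cKO; polyadenylated RNA, paired reads of 150 bp per the labels' protocols) were deposited as 1 count table and 1 FPKM table. The authors deposited whole-number counts per gene, and the FPKM values deposited by the authors scale them by exon length. STAR 2.5, HTSeq 0.61, DESeq2 2 and mm10 are named in the submitters' processing notes; their use of strand is not given in the sources used here. No gene symbols were in the tables, and 54495 of 54532 identifiers matched GENCODE M21.

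The main test was edgeR 4.0.16 (R 4.3.3) quasi-likelihood on counts, with filterByExpr (minimum count 10), TMM scaling, genotype as the only term and Benjamini-Hochberg adjustment over 17937 genes. The common biological coefficient of variation was 16.1%. CPM, and log2 CPM with a prior count of 2, were computed from the deposited counts. Correlations had 100000 permutations. Library totals lay between 33487089 and 41779836 counts; counting error alone is given beside low genes. Each replicate is 1 animal with both ears pooled, per the labels. Alternatives were DESeq2 1.42.0 and limma 3.58.1 (voom, and log2 of the authors' FPKM plus 1 or 0.1), other scaling and filters, a replicate term, and leaving out libraries. The script was tested on simulated data.

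The 10 genes, the lists and the tests were chosen with earlier results of these data known. Named were the 10 genes, pathway genes with an unadjusted p under 0.05, the 5 genes most correlated with the melanosome mean, and Esrrg and Sox10; other pathway and marker genes were named for their role after their values were seen.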

Additional observations from a re-analysis of the deposited data

Results flagged for a closer look

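With Dixon's test at its 95% critical value for 5 libraries (0.71), 50 groups of values were examined and 4 held a library far from the others, where chance gives about 2.5 (5%). Pmel in control 5 was 51.5 CPM, while the other controls lay between 69.4 and 76.5 CPM. On the first principal component, control 2 stood at -29.02 with the other controls between -4.11 and 5.70, and cKO 5 stood at 17.9 with the other cKO libraries between -0.69 and 1.77. The summed retinal pigment epithelium markers were 26.7 CPM in cKO 1 and 33.2 to 35.5 CPM in the other cKO libraries, a list in which Rpe65 had 0 or 1 count in each library.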

How the results depend on the processing

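Of the 10 genes, 0 were called in the edgeR fit reported and 1, Ednrb, with no filter on low counts, in DESeq2, in limma-voom, with a replicate block and at an adjusted p threshold of 0.1. Leaving out each library in turn gave 0 to 1 (Ednrb without cKO 3). Its log2 fold change stayed between -0.56 and -0.41 under every setting run. Over all genes 111 were called, 307 in DESeq2, 348 in limma-voom and 52 to 197 without 1 library, lowest without control 3 and highest without control 2. The log2 fold change of Mlana was -0.10 in limma-voom and between -0.079 and 0.17 without 1 library; the cause was not tested. The median r over 45 pairs was 0.32 with genotype means kept and 0.17 to 0.24 without 1 library, and over the 21 melanosome pairs 0.37 and 0.09 to 0.28; keeping the means adds the genotype difference by construction. Of the pathway genes, 0 were called under every setting. Same-numbered libraries had residual correlations of 0.087, 0.177, 0.099, 0.021 and 0.179, and 3 of 5 controls correlated best with their own number. These values do not settle whether the numbers mark pairs, and the fit reported used no pairing. With a replicate block 101 genes were called, Ednrb had an edgeR adjusted p of 0.00895 and Esrrg 0.0562. Without 1 library the edgeR adjusted p of Esrrg ranged from 0.0127 to 0.0992. Counts of 14 to 76 limit Tyrp1 and 20 to 76 limit Gpr143.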
